A study of Mnemiopsis leidyi with 50 samples.

Results

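The first hours of development of the comb jelly *Mnemiopsis leidyi* were compared with the hours from 10 to 12 h post fertilization (hpf). The comparison held 7 of the 50 single embryos of the time course, 1 embryo each at 1, 2, 3 and 4 hpf (the early embryos) and 1 each at 10, 11 and 12 hpf (the late embryos). They were chosen by their labelled hour and by library, since all 7 belonged to the 19 embryos with over 2.5% ambiguous reads, meaning reads that overlap more than 1 model. Another 30 embryos at 13 to 20 hpf had 0.740–2.04% and formed a second library group. The labels name no treatment for any embryo. The adults were wild-caught and spawned in the laboratory, and embryos were sequenced whole. Whether 1 spawning gave all of them is not said, and no hour had a second embryo in either group. The spread within a group is therefore one between single embryos. These also differ by up to 3 h (early) or 2 h (late) in age. P-values of single models weigh the difference between the groups against this spread, with its estimate moderated over all tested models.

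RNA was measured by CEL-Seq, a method that barcodes the polyadenylated RNA of each embryo, amplifies it by in vitro transcription and reads it from the 3′ end. Each value is a count of reads per protein model, and CPM is the share of a model in the embryo's total over all models, times 1000000. Total counts were 1151164 at 1 hpf, 401652 at 2 hpf, 864377 at 3 hpf, 554706 at 4 hpf, 484496 at 10 hpf, 743177 at 11 hpf and 1265333 at 12 hpf. Depth overlapped between the groups, and so did the classes of reads, with 3.21–4.19% ambiguous and 45.6–50.7% not aligned over the 7 embryos.

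An animal embryo starts development on RNA that the mother loaded into the egg. These maternal transcripts are removed over time while transcription from the embryo's own genome takes over. Ctenophores cleave rapidly and by a fixed pattern, gastrulate within hours and develop into a tentacled cydippid. Their tentacles carry colloblasts, adhesive cells found in no other animals, which burst on contact and glue prey to the tentacle. The study drew lists of candidate models from which species have or lack these traits: colloblast candidates are missing from 2 genera without colloblasts, and tentacle candidates are missing from the tentacle-less *Beroe* but present in the tentacled *Haeckelia*.

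The transcript pool of the late embryos differed from that of the early ones in many models. The test covered 4947 models that passed a filter on low counts, and 1313 of these rose (26.5%) while 680 fell (13.7%) from 1–4 to 10–12 hpf, so that 40.3% changed at an adjusted p under 0.05 (edgeR quasi-likelihood F-test, trimmed mean of M-values or TMM factors, Benjamini-Hochberg). With TMM factors, rises were larger than falls. The median size of the log2 fold change was 3.13 over the models that rose, 521 of which passed 4. It was 1.40 over those that fell, 22 of which passed 4. Of the risen models 755 had passed the filter only through the late embryos, and of the fallen ones 237 only through the early embryos, which selects for large folds. TMM also shifted fold changes towards rises relative to library size alone, as given below. The models that rose held 35.1–42.0% of an early embryo's counts and 61.1–68.2% of a late one's. Those that fell held 15.3–19.7% of the counts early and 3.68–4.35% late. These shares describe the called models and were not tested.

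How many models fell depended on the scaling and on single embryos. Without the embryo at 1 hpf 452 models fell, and without that at 12 hpf 408. TMM factors were 1.19–1.26 in the early embryos and 0.704–0.812 in the late ones, and scaling by library size alone moved the median log2 fold change, taken over the 4947 models, by −0.68, from 0.08 to −0.60. With library size alone 917 models rose and 1734 fell, so that 34.6% of changed models rose against 65.9% with TMM. All 917 risen models and all 680 fallen models of the TMM fit were among these calls, and no call turned its direction. In CPM itself all 4 early embryos lay above all 3 late ones in 37.6% of tested models, and the converse held in 19%. The models that lost their call were 396 risen ones, many of them abundant. Of 83 risen models with an early mean of at least 1000 CPM, 16 were still called. Over all 83 the median log2 fold change was 1.07 under TMM and 0.39 under library size alone. Total RNA per embryo was not measured, so all values are shares of a pool, and fewer cells of a type cannot be told apart from less RNA per cell.

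**Figure D1:**
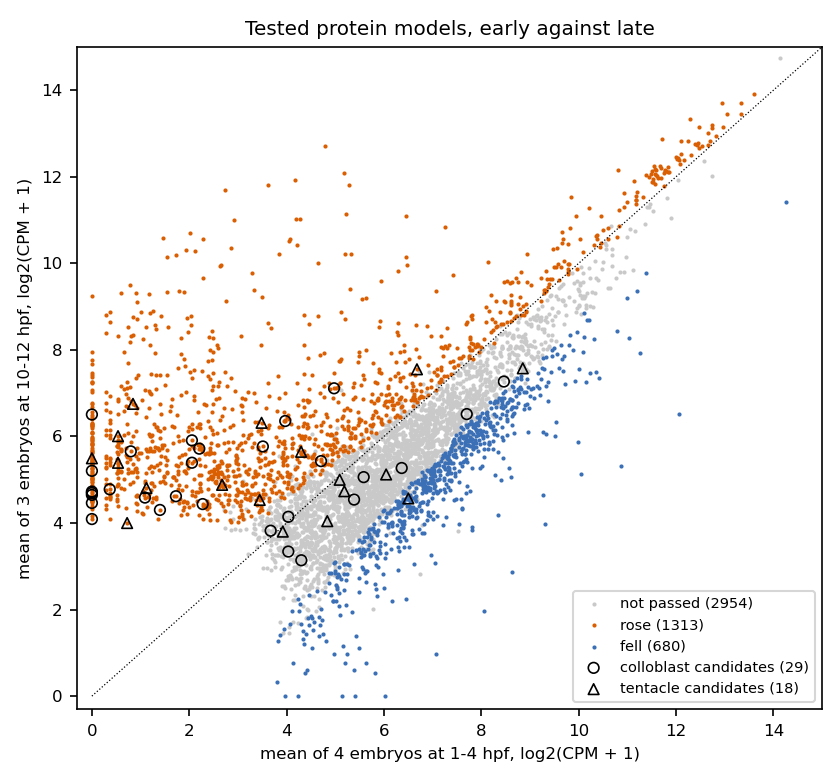
Mean level of each tested protein model in the 4 embryos at 1–4 hpf (horizontal) and the 3 embryos at 10–12 hpf (vertical), both as log2(CPM + 1). Orange points are the 1313 models that rose, blue points the 680 that fell and grey points those that did not pass. Circles are the 29 tested colloblast candidates and triangles the 18 tested tentacle candidates, and the dotted line marks equal levels. Rises spread over a wide vertical range from models at or near 0 early, and falls lie in a narrower band.

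The embryos of each group resembled each other more than those of the other group. Pearson's r of log2(CPM + 1) over the 4947 tested models was 0.868–0.953 between early embryos, 0.851–0.883 between late embryos and 0.397–0.538 across the groups. This is a description across models, which are not independent replicates, and pairs share embryos. Of these models 804 had passed the filter only through the late embryos and 1067 only through the early ones. That choice of models by itself lowers r across the groups.

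More kinds of transcript were counted late. At least 1 count was found for 7203 ± 663 models (SD, n = 4) early and 9513 ± 1136 (SD, n = 3) late. The lowest late embryo had 8533 models and the highest early one 7760. With every embryo thinned to 401652 counts the numbers were 6626 ± 291 and 8604 ± 482, again without overlap. The exact permutation test over embryos (two-sided) gave p = 0.0571 in both cases, the smallest p that 4 against 3 embryos allow, so this design cannot reach 0.05 for a single value. The late pool was also less even. The 100 most abundant models of an embryo took 41.5 ± 1.48% of its counts early and 51.0 ± 2.18% late, without overlap (exact permutation test, p = 0.0571). For the 10 most abundant the shares were 11.1 ± 1.01% and 13.5 ± 1.76%, and the groups overlapped (exact p = 0.114).

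Models that were off early and on late far outnumbered the converse. Of the 12256 models with a count in the 7 embryos, 23.8% had no early count and 4.3% had no late count. With the further demand of a count in every embryo of the other group and at least 10 CPM there on average, 257 models were silent early and 5 were silent late. A count of 0 over a whole group still allows 3 counts, or 1.01 CPM early (2971899 counts) and 1.20 CPM late (2493006 counts), counting error only. The filter on low counts left 165 of the 257 untested, and the other 92 rose. Of the 5, 3 fell and 2 were not tested. The study's lists held 17 of the 257 and none of the 5. Of the 17, 11 were colloblast and 3 tentacle candidates with an entry in the study's tables of InterProScan (protein domain) matches. Such entries were held by 129 and 101 of the 12256 models with a count. The others had no such entry and were in colloblast clusters that the study formed from its candidates. It formed them on time courses that include these embryos, and these clusters are counted among its lists.

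Outside these lists, the 2 risen and the 2 fallen models with the smallest p are given, none with a gene name here. Larger folds were found in other models. ML01482a was at 23.4–46.3 CPM in the 4 early embryos and at 4861, 4121 and 4062 CPM at 10, 11 and 12 hpf, a log2 fold change of 7.66 ± 0.29 (SE, adjusted p = 4.6e-08). ML03977a went from 5.40–7.47 CPM to 968, 1465 and 1473 CPM (8.43 ± 0.34, adjusted p = 4.6e-08). Every late embryo stood far above every early one in both.

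Among the falls, ML104343a went from 4801, 3792, 4540 and 4038 CPM at 1, 2, 3 and 4 hpf to 147, 57.9 and 68.0 CPM late (−4.90 ± 0.33, adjusted p = 7.7e-07). ML04811a went from 495–810 CPM early to 10.8–22.7 CPM late (−4.79 ± 0.35, adjusted p = 1.3e-06). The late mean was 0.0211 and 0.0234 of the early mean in these models. All 4 models kept their direction and call in every alternative that tested them.

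The colloblast candidates analysed were the 161 models in the study's table of InterProScan matches for them, some with a match that has no description. This is a part of the study's list. Candidates without an entry there were analysed only where the study's clusters or its named models held them. Of the 161, 129 had a count in the 7 embryos and 106 of these (82.2%) had the higher mean CPM late, against 57.2% of all models with a count. No early count was found for 51 of them (39.5%, against 23.8%), and all 3 late embryos lay above all 4 early ones in 42 (32.6%, against 17.4%). The filter let 29 through. Of these 20 rose and 9 did not pass, with no fall, beside 26.5% risen among all tested models. At an unadjusted p under 0.05 the number was also 20, so none was added. The median log2 fold change over the 29 was 4.03, against 0.08 over all tested models.

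These counts over tested members rest largely on the filter, since a model that passes it only through the late embryos had to differ. That held for 18 of the 29, all of which rose, and of all 804 such models 93.9% rose. In the 6 members that passed in both groups 2 rose, where 18.4% of all 2841 such models did. With library size alone 3 of the 9 that had not passed fell, and in those 3 all early embryos were above all late ones. Without the embryo at 3 hpf 13 members rose, of 21 tested. The 20 that rose had log2 fold changes of 1.40 to 9.57.

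Among the enzyme families of the colloblast list, the largest fitted log2 fold change was that of a protease. ML15994a, with the signature of papain-like cysteine proteases, which cut other proteins, had no count at 1–4 hpf and was at 99.1, 80.7 and 90.1 CPM at 10, 11 and 12 hpf. Its level was at least 88.2-fold higher late, with the early level set to the 3 counts that 0 allows over those embryos (fitted log2 fold change 9.57 ± 0.67, adjusted p = 1.1e-05). Counts of it first appeared at 6 hpf (13.8 CPM), and it was at 157 CPM in the embryo at 20 hpf of the same library group.

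The 3 tested cytochromes P450, heme enzymes that oxidize small molecules, all rose, but all 3 had passed the filter only through the late embryos, where 93.9% of models rose. ML04064a was at 0 in every early embryo and at 22.7, 14.8 and 34.8 CPM late, at least 26.2-fold higher (adjusted p = 0.00025). Between the groups it did not pass 2.37 CPM, at 9 hpf, so that its rise lay after the last middle embryo. It was at 7.23 CPM at 13 hpf and at 1.65 CPM at 20 hpf.

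The other P450 models were not fully silent early. ML049021a was at 0 CPM at 1, 2 and 3 hpf, at 12.6 CPM at 4 hpf and at 80.5, 33.6 and 63.2 CPM late (5.08 ± 0.96, adjusted p = 0.0013). ML12524a was at 0, 2.49, 1.16 and 10.8 CPM early and at 59.9, 34.98 and 60.1 CPM late (4.71 ± 0.79, adjusted p = 0.00058). In both the embryo at 4 hpf was the highest of the early ones and lay below every late one. Without that embryo the log2 fold change of ML049021a was 8.97.

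Further enzymes rose. ML00114a, with a domain of copper type II monooxygenases, the family that includes peptide-amidating and catecholamine-making enzymes, was at 0 early and at 18.6, 16.1 and 28.5 CPM late, at least 22.6-fold higher (adjusted p = 0.00026). ML01591a, an alpha carbonic anhydrase, which interconverts carbon dioxide and bicarbonate, was already counted in every early embryo, at 17.4, 27.4, 42.8 and 34.3 CPM, and stood at 107, 118 and 187 CPM late (2.90 ± 0.37, adjusted p = 8.1e-05). It passed the filter in both groups. The only tested methyltransferase, ML08599a, was at 53.2–139 CPM early and 35.1–39.0 CPM late and did not pass (−0.39 ± 0.41, adjusted p = 0.49).

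Among domains of adhesion and recognition, all 3 tested models with sushi repeats, modules known from complement and cell adhesion proteins, rose. They too had passed the filter only through the late embryos (93.9% risen among all such models). ML07605a was at 1.16 CPM at 3 hpf and 0 in the other early embryos, and at 26.8, 29.6 and 22.9 CPM late (6.37 ± 0.77, adjusted p = 5.5e-05). ML090224a went from 0–2.49 CPM to 22.7, 28.3 and 18.2 CPM (4.97 ± 0.68, adjusted p = 0.00013). It reached 21.7 CPM as early as 5.5 hpf, in an embryo where 1 count stood for 7.22 CPM. ML04419a went from 0–9.96 CPM to 26.8, 41.7 and 54.5 CPM (4.81 ± 0.81, adjusted p = 0.00059).

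Of the 5 tested models with immunoglobulin-like domains, folds that bind other proteins at the cell surface, 2 rose, both let through by the late embryos only, and 3 did not pass. ML223525a, which also holds a von Willebrand factor type D domain, the multimer-forming module of mucins and clotting factors, was one of the study's hits for adhesive proteins. It was at 0 in all early embryos and at 24.8, 17.5 and 32.4 CPM late, at least 26.2-fold higher (adjusted p = 0.00019). It stayed at or below 3.25 CPM up to 8 hpf and was at 18.8 CPM at 8.5 hpf. ML004415a was at 0, 0, 1.16 and 1.803 CPM early and at 68.1, 25.6 and 54.5 CPM late (6.50 ± 0.73, adjusted p = 3.2e-05).

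Both models with arrestin domains, adaptors that bind signalling receptors, also held an immunoglobulin-like match and did not pass. ML069135a was at 7.21–24.9 CPM early and 2.06–13.5 CPM late (−0.45 ± 0.65, adjusted p = 0.61). ML05176a was at 12.2–43.3 CPM early and 5.38–26.8 CPM late (−0.19 ± 0.60, adjusted p = 0.83). The groups overlapped in both.

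The von Willebrand factor type D family held a model with the opposite order of levels. ML32223a, another adhesive hit, was at 10.4, 14.9, 5.78 and 3.61 CPM early and at 0, 4.04 and 0.79 CPM late. It was not tested, and the groups overlapped.

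Further risen colloblast candidates were silent early. ML039811a, without an InterPro entry, was at 0 early and at 37.2, 34.98 and 35.6 CPM late, at least 35.4-fold higher (adjusted p = 7.2e-05). ML023015a, with ankyrin repeats, common protein-binding modules, was at 0 early and at 14.4, 16.1 and 45.8 CPM late (at least 30.6-fold higher, adjusted p = 0.00043). ML023010a was at 0 early and at 16.5, 13.5 and 18.2 CPM late (at least 16.3-fold higher, adjusted p = 0.00038). In these 3 models the lowest late embryo was at 13.5 CPM.

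The tentacle candidates were likewise the 144 models with an entry in the study's table of matches, a part of its list. A count was found for 101 of them, 77 of these (76.2%, against 57.2% of all models with a count) with the higher mean CPM late, and 44 had no early count, where 23.8% of all models had none. A test was made of 18, with 11 rises, 1 fall and 6 that did not pass, beside 26.5% risen and 13.7% fallen among all tested models. The median log2 fold change was 1.95, against 0.08. All 9 that passed the filter only through the late embryos rose, as did 93.9% of all such models, and this count is fixed largely by the filter. Of the 6 that passed in both groups 2 rose and 1 fell, where 18.4% and 15.6% of all such models did. Those that rose had values of 1.63 to 8.58.

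The largest fitted log2 fold change among the tentacle candidates, 8.58, was that of a sulfotransferase, an enzyme that adds sulfate to sugars, proteins or small molecules. This order depends on how the fit treats 0 early counts. ML010519a, given below, had 3 early counts and a higher late mean, 107 against 44.1 CPM. ML074410a was at 0 early and at 26.8, 56.5 and 49.0 CPM late, at least 46.5-fold higher (adjusted p = 8.6e-05). It was first counted at 6.5 hpf (3.24 CPM) and reached 24.9 CPM at 9 hpf. A further pair of sulfotransferase models was silent early and counted in every late embryo, but not tested: ML074411a at 64.0, 6.73 and 29.2 CPM and ML07449a at 16.5, 6.73 and 11.1 CPM.

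Both tested tetraspanins, membrane proteins that organize other proteins at the cell surface, rose, again as models that only the late embryos let through the filter (93.9% risen among all such models). ML010519a was at 0.87, 0, 2.31 and 0 CPM early and at 159, 70.0 and 91.7 CPM late (7.18 ± 0.60, adjusted p = 3.8e-06). It was at 20.6 CPM at 6 hpf and at 437 CPM at 20 hpf. ML02593a went from 4.98–15.0 CPM to 26.8, 17.5 and 22.1 CPM (1.83 ± 0.54, adjusted p = 0.018), and did not pass with library size alone (adjusted p = 0.096) or without the embryo at 2, 10 or 12 hpf (adjusted p = 0.051, 0.062 and 0.057).

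Other tentacle candidates were carried by few early counts. ML148942a, with a match to WW domain-binding protein 1, had 1 count over the early embryos, at 4 hpf, and stood at 80.5, 43.1 and 66.4 CPM late (7.57 ± 0.72, adjusted p = 1.1e-05). ML190419a had 1 early count as well and was at 51.6, 21.5 and 49.8 CPM late (6.94 ± 0.82, adjusted p = 4.5e-05). ML047934a went from 0–1.803 CPM to 35.1, 21.5 and 24.5 CPM (4.86 ± 0.62, adjusted p = 7.5e-05).

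Smaller rises were found in models already counted early. ML002220a, which matches the organic solute transporter alpha family, went from 0.87–12.4 CPM to 26.8–30.9 CPM (3.31 ± 0.67, adjusted p = 0.0020), with its highest value, 66.5 CPM, between the groups at 6 hpf. ML079716a went from 0–2.61 CPM to 13.5–16.5 CPM (4.44 ± 0.82, adjusted p = 0.0011). ML08647a, a match to a splicing-associated protein, went from 9.96–26.6 CPM to 36.4–59.2 CPM (2.07 ± 0.43, adjusted p = 0.0022).

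ML02667a, which matches the gamma-glutamyl cyclotransferases that degrade glutathione, is the risen tentacle candidate whose groups overlapped in CPM. It was at 136, 112, 83.3 and 73.9 CPM at 1, 2, 3 and 4 hpf and at 80.5, 291 and 189 CPM late (1.63 ± 0.41, adjusted p = 0.0079). Without the embryo at 11 hpf it did not pass (log2 fold change 1.09, adjusted p = 0.056), nor with library size alone (adjusted p = 0.069).

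The 1 tentacle candidate that fell was ML212019a, with the cysteine-rich N-terminal region of transmembrane protein 135. It was at 62.5, 87.1, 71.7 and 137 CPM early and at 33.0, 16.1 and 19.0 CPM late, so that the groups did not overlap (−1.31 ± 0.42, adjusted p = 0.027). The call was lost without the embryo at 4, 11 or 12 hpf, at adjusted p of 0.062, 0.079 and 0.11. ML092611a, with immunoglobulin-like and zinc finger matches, was at 21.6–41.6 CPM early and 20.6–42.7 CPM late and did not pass (0.64 ± 0.42, adjusted p = 0.25).

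**Figure D2:**
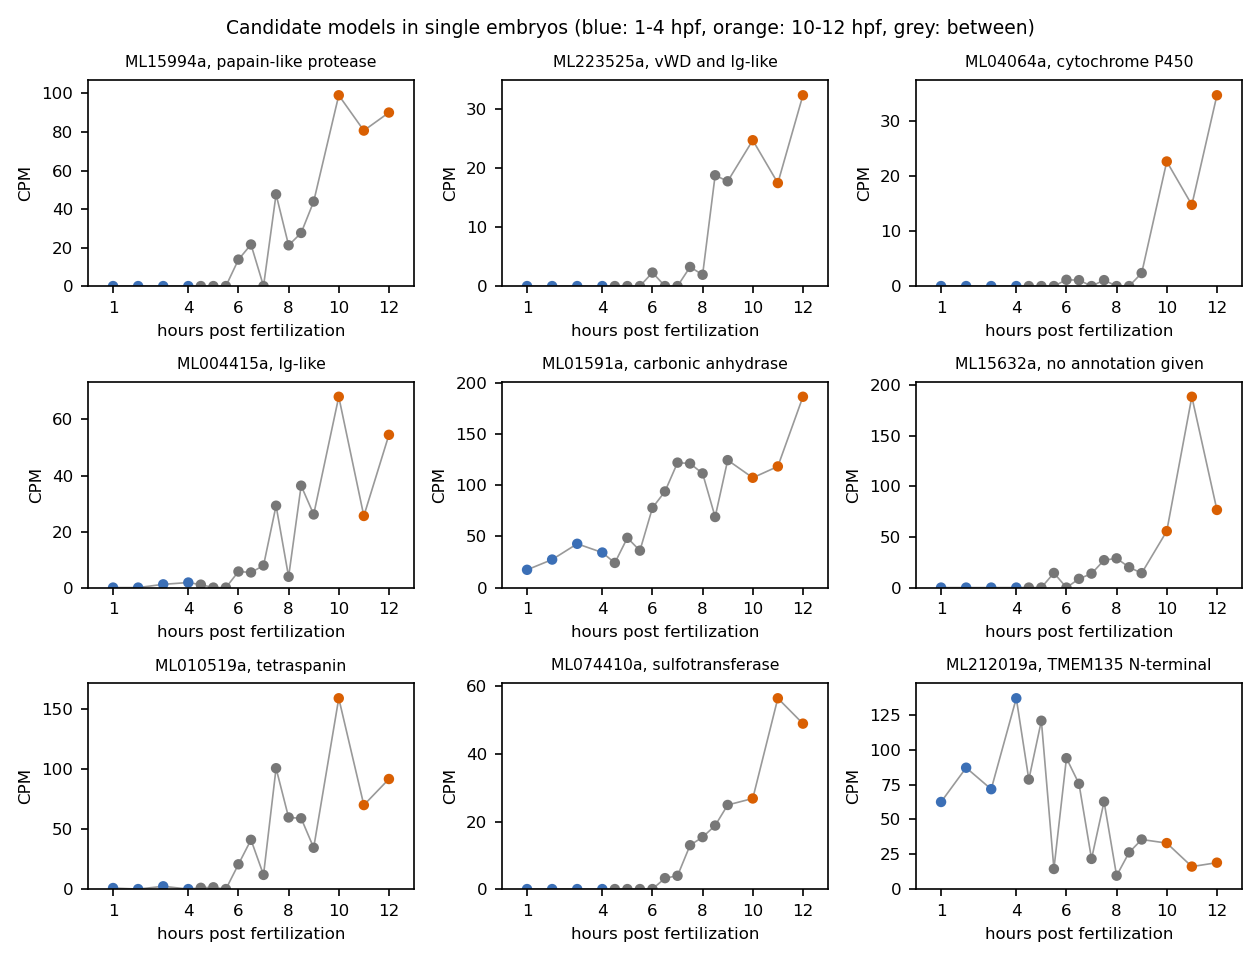
CPM (vertical, linear from 0) of 9 models in single embryos from 1 to 12 hpf (horizontal), 1 embryo per point, with the early embryos in blue, the late ones in orange and those between in grey. Most panels stay at or near 0 up to 5.5 hpf and climb after it, while ML01591a is counted from 1 hpf on and ML212019a declines from 137 CPM at 4 hpf to 16.1–33.0 CPM late.

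Counted over protein families, 14 of the 39 families drawn from the signatures of both lists had a tested member, and 10 of these had a member that rose. In 9 of the 10 every risen member had passed the filter only through the late embryos, where 93.9% of all models rose, and the exception was the carbonic anhydrases. Among all models with a count 57.2% had the higher mean CPM late and 4.3% had no late count. The other 25 families had none tested, among them the lectins, sugar-binding proteins, where 9 of 11 members with a count had the higher mean CPM late. All 4 counted members of the major facilitators and all 4 of the ion transport family, both of which move small molecules or ions across membranes, had the higher mean late. In the pore-forming MACPF family, relatives of perforin and complement, both counted members had no late count. None of the 3 tested zinc finger models rose or fell.

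**Figure D3:**
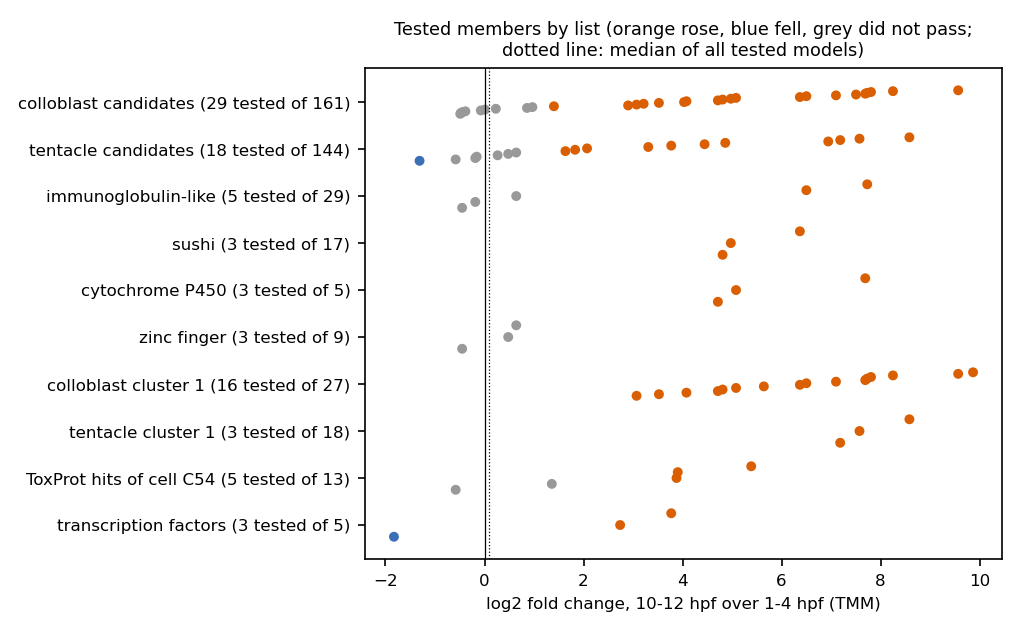
Log2 fold change, 10–12 over 1–4 hpf (TMM), of every tested member of 10 lists, 1 point per model, with risen models in orange, fallen ones in blue and those that did not pass in grey. The dotted line is the median of all tested models (0.08). Risen members spread up to 9.87 in colloblast cluster 1, while the members that did not pass lie within −0.58 to 1.36.

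The study had also grouped candidates into clusters by their time course, which included these embryos, so their direction here is not independent evidence. In the first colloblast cluster (27 models) all 16 tested members rose, each let through the filter by the late embryos only, and all 27 had the higher mean CPM late. In the first tentacle cluster (18 models) all 3 tested rose and had passed in the same way (93.9% risen among all such models). The second clusters of each list (11 and 6 models) had no tested member, though all their means were higher late.

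By mean CPM over all 7 embryos, the most abundant members of the first colloblast cluster were ML15632a, ML15994a and ML150914a. ML15632a, with no signature here, was at 0 early and at 55.7, 188 and 76.7 CPM late, at least 105-fold higher (adjusted p = 6.1e-05). ML150914a, with a PAN/apple domain, a fold that binds proteins or sugars, went from 2.49–18.0 CPM to 24.8, 28.3 and 107 CPM (3.07 ± 0.66, adjusted p = 0.0030). The embryo at 12 hpf was the highest of the 7 in that model and the one at 11 hpf in ML15632a.

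In the second colloblast cluster ML047916a, a glutaredoxin, which reduces disulfides with glutathione, was at 0 early and at 8.26, 26.9 and 35.6 CPM late. ML46084a was at 0 early, at 2.06, 12.1 and 22.9 CPM late and at 328 CPM at 20 hpf. ML50011a, a calcium-binding EGF-like and lectin model among the adhesive hits, was at 0, 0, 1.16 and 5.41 CPM early and at 8.26, 12.1 and 11.1 CPM late. None of the 3 was tested. In all 3 every late embryo lay above every early one, as in 10 of the cluster's 11 members. Over counted models as a whole, 17.4% showed such a separation. The study grouped these members by time course with the present embryos among its data, so the separation was partly selected for.

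In the second tentacle cluster levels were low in both groups. ML01571a, with EF-hands, the calcium-binding loops of calmodulin, was at 0–2.49 CPM early and at 2.06, 17.5 and 9.48 CPM late. ML05962a, a C-type lectin with an immunoglobulin-like domain, was at 0–3.47 CPM early and at 8.26, 9.42 and 2.37 CPM late, and at 69.2 CPM at 20 hpf. ML01818a was at 0 in all embryos of both groups but that at 12 hpf (5.53 CPM).

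Further silent candidates were not tested. ML01413a was at 6.19, 44.4 and 23.7 CPM late, and ML023013a, with sushi repeats, at 8.26, 39.0 and 19.8 CPM. ML01537a, with leucine-rich repeats and a von Willebrand factor type D match, was at 6.19, 24.2 and 15.8 CPM. ML07721a, an ion transport protein, was at 12.4, 2.69 and 17.4 CPM. In the first 3 the embryo at 10 hpf was the lowest of the late ones.

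Of the transcription factors that the study ties to colloblasts or other tentacle cells, only the 5 studied before in this species were followed. Of these 5, 2 rose, 1 fell and 2 had too few counts for a test. Both that rose had passed the filter only through the late embryos (93.9% risen among all such models). They were set as markers, but whole embryos separate no cell type. MlNR1 (ML073417a), a nuclear receptor, was the most abundant and fell. It was at 718, 1013, 964 and 698 CPM at 1, 2, 3 and 4 hpf and at 192, 114 and 138 CPM at 10, 11 and 12 hpf (−1.83 ± 0.26, adjusted p = 0.00015). Every early embryo stood above every late one. Between the groups it was at 441–641 CPM up to 6 hpf and at 151–362 CPM from 6.5 to 9 hpf.

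MlBsh (ML08269a), a homeobox factor named after brain-specific homeobox of flies, rose from 5.21, 17.4, 4.63 and 12.6 CPM to 49.5, 25.6 and 40.3 CPM (2.74 ± 0.55, adjusted p = 0.0019). MlPRD10a (ML148940a), a homeobox model among the tentacle candidates, was at 0, 0, 1.16 and 39.7 CPM at 1, 2, 3 and 4 hpf and at 76.4, 95.5 and 64.0 CPM late (3.77 ± 1.04, adjusted p = 0.013). Without the embryo at 4 hpf its log2 fold change was 7.76. It did not pass with DESeq2 (adjusted p = 0.12). Its highest level fell between the groups, 157 CPM at 6 hpf, and declined to 77.1 CPM at 9 hpf.

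MlNR2 (ML305522a), another nuclear receptor, was at 4.34, 2.49, 0 and 10.8 CPM early and at 4.13, 2.69 and 4.74 CPM late, with the groups overlapping. MlIslet (ML053012a), a LIM homeobox factor, had no early count and was at 6.19, 17.5 and 4.74 CPM late, at least 8.74-fold higher. At this depth 1 count stood for 0.790–2.49 CPM, so that low levels of both rest on few reads.

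**Figure D4:**
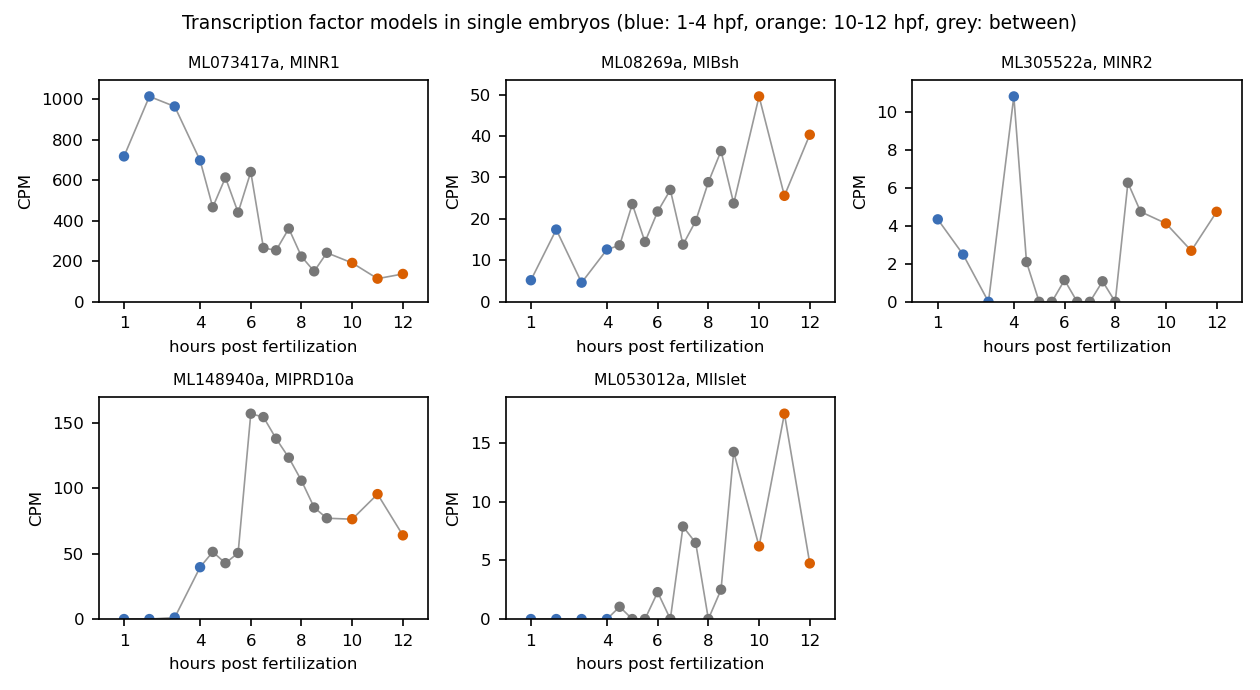
CPM (vertical, linear from 0) of the 5 transcription factor models in single embryos from 1 to 12 hpf (horizontal), with early embryos in blue, late ones in orange and those between in grey. MlNR1 declines from 698–1013 CPM, MlPRD10a peaks at 157 CPM at 6 hpf, and MlNR2 stays at or below 10.8 CPM.

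The study also listed models with a match to animal toxins among the genes of C54, a cell type of an adult single-cell atlas that the study takes as a putative tentacle cell type. Of 13, 11 had a count and 5 were tested, of which 3 rose, beside 26.5% of all tested models. All 3 had passed the filter only through the late embryos, where 93.9% of models rose. ML09434a went from 2.61, 4.98, 1.16 and 10.8 CPM to 159, 98.2 and 92.5 CPM (5.39 ± 0.55, adjusted p = 1.6e-05). ML15049a went from 2.31–16.2 CPM to 48.4–82.2 CPM (3.88 ± 0.56, adjusted p = 0.00020) and was at 356 CPM at 20 hpf. ML10592a went from 0.87, 0, 0 and 9.01 CPM to 18.6, 14.8 and 30.0 CPM (3.90 ± 0.90, adjusted p = 0.0045, and 5.92 without the embryo at 4 hpf).

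The EF-hand toxin hit ML01511a showed how the scaling bears on an abundant model. It was at 336, 471, 362 and 676 CPM early and at 215, 167 and 187 CPM late, every early embryo above every late one. The fit gave −0.58 ± 0.28 (adjusted p = 0.13) with TMM and −1.26 (adjusted p = 0.0034) with library size alone. ML064935a was at 7.47–19.8 CPM early and 10.8–28.5 CPM late (1.36 ± 0.51, adjusted p = 0.053).

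Other models that the study names were too low to be tested. ML398319a was at 0–3.47 CPM early and at 30.96, 10.8 and 20.5 CPM late, and ML32096a was at 2.61–7.21 CPM early and 0.79–6.19 CPM late. ML14247a, an adhesive hit with immunoglobulin-like, Kazal and von Willebrand factor type D matches, had no early count and was at 2.06, 5.38 and 12.6 CPM late. The toxin hits ML273210a and ML056965a and ML41821a, which shares an orthology group with tentacle candidates and a cnidocyte gene of a sea anemone, were at or below 8.10 CPM in every early embryo and reached 32.4, 10.3 and 25.3 CPM in their highest late one, and their groups overlapped.

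The embryos between the groups did not enter the contrast and show when the changes took place. For each changed model the level of an embryo was placed on a scale from 0, the early mean, to 1, the late mean, on log2(CPM + 1). Of the 1313 risen models, 332 (25.3%) first reached the middle of this scale on average over the embryos of 4.5–6 hpf, 568 (43.3%) over those of 6.5–8 hpf, 246 (18.7%) over those of 8.5–9 hpf and 167 (12.7%) later. Of the 680 fallen models, the numbers were 93 (13.7%), 341 (50.1%), 145 (21.3%) and 101 (14.9%). In both directions the 4 embryos of 6.5–8 hpf therefore held the largest class.

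By embryo, the median position of risen models was 0.07 at 4 hpf, 0.49 at 6 hpf, 0.65 at 6.5 hpf and 0.89 at 9 hpf. That of fallen models was 0.07, 0.30, 0.47 and 0.69 at the same hours. The embryo at 5.5 hpf lay lower than its neighbours for risen models (0.01), and its library was the shallowest of those between, with 138478 counts. The scale was set on CPM, and over the 917 risen models that library size alone also called, the medians at 6 and 9 hpf were 0.48 and 0.88.

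**Figure D5:**
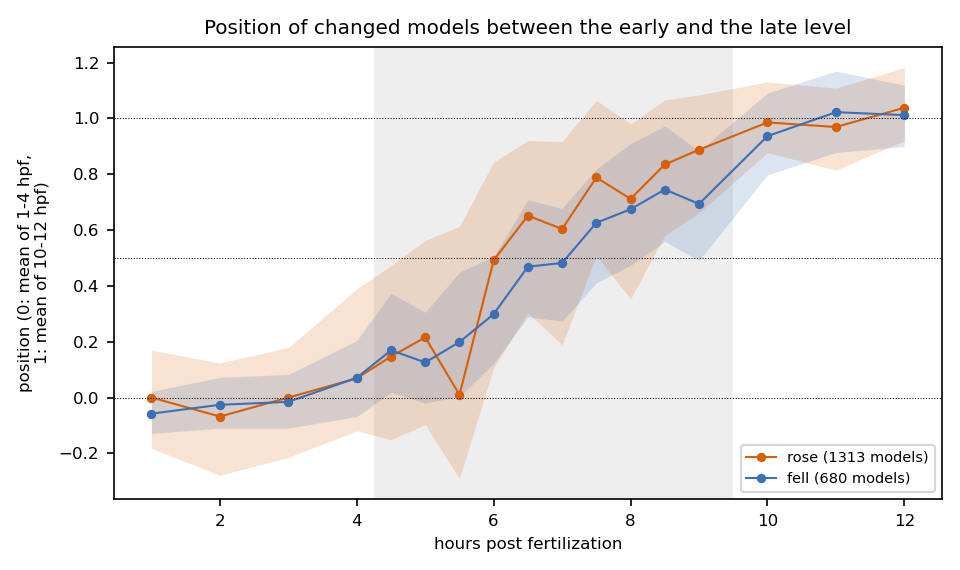
Median position (points) and quartiles (bands) of the 1313 risen (orange) and 680 fallen (blue) models by embryo, from 1 to 12 hpf (horizontal), where 0 is the mean of 1–4 hpf and 1 the mean of 10–12 hpf on log2(CPM + 1). The grey area marks the embryos from 4.5 to 9 hpf, which did not enter the contrast. Positions at 1–4 and 10–12 hpf are near 0 and 1 by construction. The median of risen models is 0.15 (4.5 hpf), 0.22 (5 hpf), 0.01 (5.5 hpf) and 0.49 (6 hpf). The dip to 0.01 is at the embryo whose library, with 138478 counts, is the shallowest in the grey area. Whether depth gave the dip was not tested.

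Of the 20 risen colloblast candidates, 3 reached the middle at 4.5–6 hpf, 9 at 6.5–8 hpf, 6 at 8.5–9 hpf and 2 later. Of the 11 risen tentacle candidates, the numbers were 4, 6, 0 and 1. None of the 16 risen members of the first colloblast cluster did so at 4.5–6 hpf, where 25.3% of all risen models did. The study formed that cluster on time courses that include these embryos, so its timing is not independent evidence. The lists were not tested against each other or against all models.

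The embryo at 4 hpf already held transcripts that the 3 younger ones did not. It had 47 models with at least 10 CPM and no count at 1, 2 and 3 hpf, whereas the same count for each other early embryo alone was 0 at 1 hpf, 2 at 2 hpf and 3 at 3 hpf. Its total (554706 counts) was the second lowest of the 4. Of the 47, 24 averaged at least 10 CPM late, 11 rose and 30 were not tested, where 26.5% of all tested models rose. The study's lists, clusters included, held 4 of the 47. For the 24 and for the 4 no share of all models was computed, so neither is read as a result about these models.

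Embryos of the same library group that the contrast did not use, 1 at 13 hpf (414804 counts) and 1 at 20 hpf (606527 counts), were compared with the early embryos. Of the risen models, 80.1% at 13 hpf and 78.3% at 20 hpf were above all 4 early embryos in CPM, where 28% and 26.2% of all tested models were. Of the fallen models, 95.7% and 96.9% were below all 4, where 47.2% and 49.6% of all tested models were. The calls had been made against the same 4 early embryos, so part of the difference from all tested models is built in, in both directions. Of the 1313 risen models, 939 had all 3 late embryos above all 4 early ones in CPM. All 20 risen colloblast candidates were above all early embryos at 20 hpf and 19 at 13 hpf, and for the 11 risen tentacle candidates the numbers were 10 and 9. Among the risen candidates named here the level at 20 hpf went from 1.65 CPM (ML04064a) to 437 CPM (ML010519a).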

How the data were processed

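Single embryos were sequenced by CEL-Seq with barcoded primers that carry molecular identifiers. The submitters' processing notes name CASAVA 1.8, Bowtie2 2.1.0 and HTSeq 0.5.4p3. The authors deposited whole-number counts for 16548 protein models (ML2.2), with no normalization. The sources used here do not give the genome build, the options of the counter or whether identifiers were collapsed, so counts may not be independent molecules, and floors cover counting error only. The 5 rows for reads that HTSeq did not count stayed out of totals and tests (counted reads made up 30.2–32.1% of the 7 embryos). No column was left without a sample.

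CPM was computed over the models. Changes between 1–4 and 10–12 hpf were tested with edgeR 4.0.16 in R 4.3.3 (quasi-likelihood F-test, TMM factors, filterByExpr by group, which asked for about 13.5 CPM in at least 3 embryos), adjusted by Benjamini-Hochberg over all tested models, with a threshold of 0.05 and no limit on the fold. Counts with known changes were simulated for this comparison, with 4985 models tested. The fit recovered 90.6% of 96 log2 changes of 2 and 36.1% of 97 changes of 1. Of its calls 5.43% were false. A far smaller part of the models was changed there than the 40.3% called in the embryos. These rates therefore need not hold for the present contrast. A fold against a silent group is a bound set by 3 counts over that group. CEL-Seq reads 3′ ends, so no length was used. Alternatives were RLE factors, library size alone, no filter, DESeq2 1.42.0, limma 3.58.1 (voom), thinned counts, all embryos from 1 to 12 hpf, a null of a log2 change of 1, other pseudocounts and leaving out each embryo. Taking only models that library size alone also called for the timing was added after the data were seen. Tables, exact tests and plots were made with pandas 2.3.3, scipy 1.17.1, matplotlib 3.10.9 and numpy 2.4.6 under Python 3.11.15.

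Clusters and hits came from the study's lists, candidates from its tables of InterProScan matches, which hold part of the full lists, and families from the descriptions there. The members and lists were chosen with earlier results of these data known. Named models are the risen or fallen candidates with the largest change (at most 12 a list), the models named by the study with at least 10 counts, in each family the 2 tested members of smallest p, the 3 most abundant of each cluster, the candidates silent in 1 group, and outside the lists the 2 risen and 2 fallen models with the smallest p. The reference table of gene names matched 0 of the model identifiers. The columns of the deposited table hold no comparison of the authors.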

Additional observations from a re-analysis of the deposited data

Results flagged for a closer look

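In a group of 4 embryos a value was set apart where its gap to the nearest other embryo was too large a part of the group's range (above Dixon's critical value at the 95% level). Of 50 values tested over the early embryos 9 were set apart, where chance gives about 1 in 20, and 5 of the 9 were high at 4 hpf. MlPRD10a (ML148940a) was at 39.7 CPM at 4 hpf, next to 1.16 CPM at 3 hpf. The P450 model ML049021a was at 12.6 CPM and the toxin hit ML10592a at 9.01 CPM at 4 hpf, where the next embryo had 0 and 0.87 CPM. ML079716a was at 2.61 CPM at 1 hpf (3 counts) and at 0 in the others. A further 4 rest on 1 count each: ML148942a and ML190419a at 1.803 CPM at 4 hpf, ML07605a at 1.16 CPM at 3 hpf and ML01571a at 2.49 CPM at 2 hpf. The 10 most abundant models took 12.6% of the counts at 1 hpf, against at most 10.7% in the other early embryos. Values of 1 count against 0 meet this limit whatever the model, and no cause was tested.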

How the results depend on the processing

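No paired analysis was possible because the labels number embryos in 1 run over the course, and no number is shared between the groups. The 12 counts of risen and fallen models over all models and the lists kept within 1.5 times of their main value in most alternatives. Without the filter beyond 1 count, more models were tested (12256 in all) and 2740 rose, with 52 colloblast candidates, 34 tentacle candidates, 51 family members, 50 cluster members and 15 named by the study risen and 2 tentacle candidates, 1 family member and 2 named models fallen. In the fit of all embryos from 1 to 12 hpf (6332 tested), 1073 models fell, and 34 colloblast candidates, 19 tentacle candidates, 28 family and 33 cluster members rose, with 1, 2, 1 and 2 falls in the colloblast, tentacle, family and named models. With library size alone 1734 models fell, among them 3 colloblast and 2 tentacle candidates, 2 family members and 2 named models. Against a log2 fold change of 1, 154 models and 0 tentacle candidates fell. Thinned counts left fewer tested, with 9 colloblast candidates, 8 family members and 10 cluster members risen. Leaving out 1 embryo at a time gave 1072–1369 risen and 408–701 fallen models, 13–24 colloblast and 9–11 tentacle candidates risen with 0–0 and 0–1 fallen, 12–18 family and 15–23 cluster members and 5–8 named models risen. Among the 917 risen models that library size alone also called, 183 reached the middle at 4.5–6 hpf and 87 after 9 hpf. Of 616 values of 43 single models, 590 kept direction and side of the threshold, 14 lost the call and 8 gained it. Another 4 changed sign, all in models that did not pass: ML05176a to 0.12 without the embryo at 4 hpf and 0.18 without that at 11 hpf (−0.80 to 0.18 over all single omissions), ML08599a to 0.0184 without that at 4 hpf (−0.60 to 0.0184), and ML092611a to −0.0546 with library size alone. No cause of these differences was tested beyond the numbers tested.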
